A study of Mus musculus with 24 samples.

Results

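Remote regions of open chromatin, those whose centre lay over 100 kb from every start site of a protein-coding gene, were described in bone marrow-derived macrophages of the mouse strains BTBR and C57BL6/J with and without lipopolysaccharide (LPS). Peaks that overlapped within a deposited list were collapsed, lists with under 5000 peaks were dropped, the 22 kept lists were merged where peaks overlapped by 1 bp, and regions seen in 2 or more libraries were kept. Of 106265 such regions, 8936 (8.41%) were remote. They are set beside 74049 other distal regions, over 1 kb and up to 100 kb from a transcription start site (TSS), and 23280 promoter regions within 1 kb of one.

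ATAC-seq, in which the transposase Tn5 cuts and tags accessible DNA, was run on macrophages that had differentiated for 7 days in culture, with 50000 cells per reaction. Marrow donors were males at postnatal day 28. The 8 animals were 4 BTBR T+ Itpr3tf/J (BTBR: animals 2, 3, 5 and 8) and 4 C57BL6/J (animals 1, 4, 6 and 7). Each gave 3 libraries: a single 24-hour exposure to LPS at 100 ng/ml (LPSx1), the same exposure after an earlier one of 4 hours and about 20 hours without LPS (LPSx2), and medium alone (media). Each of 4 sequencing lanes held 1 animal of each strain. Kept libraries had 6 to 8 additional PCR cycles in lanes 1 and 2, and 10 to 13 in lanes 3 and 4. The cells are cultures and not tissue macrophages, and in bulk libraries a smaller share of cells with a region open and a weaker opening in each cell cannot be told apart. The numbers of kept libraries were 8 for LPSx1, 7 for LPSx2 and 7 for media, since the LPSx2 and media lists of C57BL6/J animal 6 held too few peaks.

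Macrophages are phagocytes of the innate immune system that sense LPS, a bacterial outer membrane component, through Tlr4. Most of their distal accessible sites are enhancers, which act on genes at a distance by looping. Enhancers of macrophages are marked out by the lineage factor PU.1 together with C/EBP, RUNX and AP-1 proteins, and LPS activates AP-1 and NF-kB, which bind at existing and newly opened sites. Sites far from any gene start often lie in gene-poor stretches beside genes of transcription factors and signalling proteins. CTCF, which marks loop anchors, and SP/KLF proteins, which bind GC-rich promoters, served as points of comparison.

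The lists differed in length, and read depth is not given in the sources used here. The kept lists held 11349 to 127242 peaks after collapsing, so within a lane each was limited to its highest-scoring peaks at the length of the lane's shortest list (11349 peaks in lane 1, 22037 in lane 2, 16045 in lane 3 and 13957 in lane 4). Detection below means presence in these length-limited lists unless full lists are named, so a region can be undetected because others ranked above it. Peaks within 1 kb of the TSS of 10 macrophage genes were found in 15 to 22 of 22 libraries each, among them Spi1, which encodes PU.1, and Tlr4 in all 22. Of 4 B cell genes, Cd79a had such a peak in no library and the other 3 in 1 to 7. Of 6 fibroblast genes 4 had one in no library, as had 3 of 6 neutrophil, 3 of 6 T and NK cell, 3 of 5 dendritic cell and 2 of 4 erythroid genes. Members of these lists that did have peaks in many libraries were S100a8 (21), Camp (20), Zbtb46 (16) and Lck (12).

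The windows below carry the main results and were chosen for that after the values were seen. They are the reference sequence of the mm10 assembly (GRCm38, from NCBI RefSeq, C57BL6/J strain), plus strand, of the highest-ranked peak of each region. In length-limited lists, the first 3 regions were detected after LPS and not in media, that beside Klf4 in media and not after LPS, that beside Meis1 in BTBR, that between Cdh10 and Cdh12 in C57BL6/J, and that between Hmga2 and Msrb3 differed by strain in its LPS response. The last pair was in every full list. Capitals mark motif matches on either strand, for AP-1 (TGACTCA or TGAGTCA), C/EBP (TTGCNNAA), RUNX (TGTGGTT), SP/KLF (GGGCGGGG) and the longer NF-kB consensus. PU.1 (GAGGAAGT), STAT (TTCCNGGAA), MiT/TFE (TCACGTGA) and the longer IRF and CTCF consensus were also searched, and matches that overlap were counted for each motif. In the window between Flrt2 and Galc alone, capitals mark stretches of 20 or more bases found exactly in the mitochondrial genome.
Intron of Sox5, chr6:144640564-144640764: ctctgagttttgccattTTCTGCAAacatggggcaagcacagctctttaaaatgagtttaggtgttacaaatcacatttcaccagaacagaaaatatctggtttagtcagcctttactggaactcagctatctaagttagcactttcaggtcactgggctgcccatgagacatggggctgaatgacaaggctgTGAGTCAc
At Ighv1-63, chr12:115495492-115495692: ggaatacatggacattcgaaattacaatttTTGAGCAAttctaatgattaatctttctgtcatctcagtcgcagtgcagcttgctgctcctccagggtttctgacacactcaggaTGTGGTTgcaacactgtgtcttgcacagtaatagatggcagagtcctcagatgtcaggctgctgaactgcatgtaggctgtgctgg
At Ighv1-73, chr12:115790480-115790680: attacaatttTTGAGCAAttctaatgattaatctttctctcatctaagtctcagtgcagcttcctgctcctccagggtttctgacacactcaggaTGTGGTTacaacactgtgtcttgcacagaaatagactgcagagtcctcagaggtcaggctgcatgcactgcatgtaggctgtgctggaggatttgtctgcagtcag
Beside Klf4, chr4:55741440-55741640: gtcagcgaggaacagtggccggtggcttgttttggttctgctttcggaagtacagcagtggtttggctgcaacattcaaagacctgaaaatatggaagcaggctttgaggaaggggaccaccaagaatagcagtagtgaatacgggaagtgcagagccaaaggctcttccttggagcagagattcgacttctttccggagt
Beside Meis1, chr11:18681701-18681901: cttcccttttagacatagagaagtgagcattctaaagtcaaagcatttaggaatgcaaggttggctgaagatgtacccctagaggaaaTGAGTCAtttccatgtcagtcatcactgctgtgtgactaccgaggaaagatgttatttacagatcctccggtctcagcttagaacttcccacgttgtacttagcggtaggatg
Between Cdh10 and Cdh12, chr15:19857418-19857618: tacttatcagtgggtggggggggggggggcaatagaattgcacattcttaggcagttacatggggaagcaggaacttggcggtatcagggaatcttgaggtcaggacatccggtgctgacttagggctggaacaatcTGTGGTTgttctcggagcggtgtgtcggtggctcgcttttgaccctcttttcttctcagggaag
Between Hmga2 and Msrb3, chr10:120636203-120636403: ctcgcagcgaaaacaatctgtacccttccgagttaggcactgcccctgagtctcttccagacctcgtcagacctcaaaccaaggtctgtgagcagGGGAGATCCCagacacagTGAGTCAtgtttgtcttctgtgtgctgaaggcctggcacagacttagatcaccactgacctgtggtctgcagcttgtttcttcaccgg
Between Pcmtd1 and Sntg1, chr1:7398048-7398248: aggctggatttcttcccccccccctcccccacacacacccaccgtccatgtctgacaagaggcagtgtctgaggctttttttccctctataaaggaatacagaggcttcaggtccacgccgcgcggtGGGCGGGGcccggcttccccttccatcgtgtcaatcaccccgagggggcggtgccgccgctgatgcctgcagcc
Between Flrt2 and Galc, chr12:97061511-97061711: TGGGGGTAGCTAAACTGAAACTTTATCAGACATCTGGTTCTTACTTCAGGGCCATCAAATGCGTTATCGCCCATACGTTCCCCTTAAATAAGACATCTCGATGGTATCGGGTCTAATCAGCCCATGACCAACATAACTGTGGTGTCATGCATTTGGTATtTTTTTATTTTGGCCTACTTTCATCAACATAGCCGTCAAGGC

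The first window holds a C/EBP and an AP-1 match, and both windows at the Ighv genes hold a C/EBP and a RUNX match at like positions. The pair at the Ighv genes matched at 150 of 181 overlapping bases (82.9%), so they are near copies of each other, and reads from such copies can be hard to place. The Klf4 window holds no match to any of the 10 motifs searched. The Hmga2 window holds an NF-kB and an AP-1 match close together. In the window between Flrt2 and Galc, 99.5% of bases lay in stretches shared with the mitochondrial genome.

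Remote regions were sparse, and they recurred between libraries about as often as other distal ones. They numbered 9.17 per Mb in the 975 Mb of sequence over 100 kb from a TSS, against 47.0 per Mb for other distal regions in 1575 Mb and 238 per Mb for promoter regions in 98.0 Mb, so 36.8% of the sequence held 8.41% of the regions. In full lists, 32.5% of remote regions were seen in exactly 2 libraries, against 33.6% of other distal ones, and 150 (1.68%) were in every list, against 1.39% of other distal and 15% of promoter regions. The length-limited lists held 3336 of the remote regions at least once, and 5600 were in none. Full lists of BTBR animal 2 held 8040 members after LPSx1 and 8545 after LPSx2, and its 2 LPS lists could alone make a region a member. They also held 98945 and 102773 of all 106265 regions. The other full lists held 537 to 4641 members. The density, places, chains and nearest genes of members therefore lean on this animal. The median distance to a TSS was 172 kb and the highest 2140 kb. At the threshold, 978 members lay between 100 and 110 kb and 1186 other distal regions between 90 and 100 kb.

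Most remote regions lay outside protein-coding and long noncoding RNA genes. Of the members, 5613 (62.8%) were outside both, 1715 (19.2%) in introns and 39 (0.436%) in exons of protein-coding genes, and 1569 (17.6%) in long noncoding RNA genes alone. For other distal regions the shares were 36.4%, 53.3%, 4.82% and 5.43%. Within 1 kb of the TSS of a long noncoding RNA lay 2.99% of remote and 2.35% of other distal regions. A further 59 members lay within 1 kb of the start of an immunoglobulin or T cell receptor segment, a gene type that the rule did not count as protein-coding.

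Remote regions came in groups beside a limited set of genes. Joined where less than 50 kb apart, they formed 2066 chains, with 882 members (9.87%) alone and 6249 (69.9%) in chains of 5 or more. The longest, with 68 members over 818 kb of chromosome 12 (115107523 to 115925827), lay in the immunoglobulin heavy chain variable segments between Adam6a and Zfp386. The next held 65 members over 473 kb between Wwox and Maf, a transcription factor gene of macrophages (chromosome 8, 115126624 to 115600114). Chains of 61 members beside Bcl2l11, which encodes the death inducer Bim (chromosome 2, 128229830 to 128487136), of 56 beside Btg1, a growth inhibitor (chromosome 10, 96237693 to 96503633), and of 53 between Id2, an inhibitor of basic helix-loop-helix factors, and Rnf144a (chromosome 12, 25197255 to 25653040) followed. By nearest gene the members fell to 1510 genes, 78 of them with 20 or more. Zfp386 had 80, Adgrl2, an adhesion receptor gene, 79, Zeb2, a repressor needed for macrophage identity, 79, Cited2 71 and Myc 63.

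Genes of macrophage factors were nearest to a larger share of remote than of other distal regions, and inflammatory mediators to a smaller one. Of 30 macrophage factor and identity genes, 7 were nearest to 275 members (3.08% of members, against 0.690% of other distal regions), among them Zeb2 (79), Maf (62), Klf6 (54), Klf4 (47) and Runx1 (31). Of 27 inflammatory mediators, 2 were nearest to 5 members (0.0560%, against 0.327%). Developmental regulators were nearest to 205 members (2.29%, against 0.718%), with Sall3 (20), Tshz1 (18) and Zfhx3 (17) leading. Neural adhesion and channel genes were nearest to 181 (2.03%, against 0.987%), with Pcdh7 (27), Kcnrg (23) and Kcnj2 (22) leading. A gene can be nearest to a member only where sequence over 100 kb from every protein-coding TSS adjoins it. The rule and the spacing of genes therefore partly fix these shares, which are descriptions with no test.

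Peaks in remote regions held macrophage enhancer motifs more often than peaks in other distal regions of the same library, and CTCF and promoter motifs less often. Per library, 27.4% ± 3.60 of remote peaks held the AP-1 motif, against 25.3% ± 3.86 of other distal peaks (SD, n = 22), a difference of 2.19 points with the remote share higher in all 8 animals (exact sign-flip permutation over animals, adjusted p = 0.0130, p = 0.00781 being the smallest it can give). The C/EBP motif was in 18.5% ± 2.05 against 15.5% ± 1.71 (adjusted p = 0.0130) and the PU.1 motif in 14.5% ± 1.59 against 13.2% ± 1.43 (adjusted p = 0.0213, higher in 7 of 8 animals by the same exact test). RUNX (9.93% against 9.24%, adjusted p = 0.0213) and IRF (3.64% against 3.22%, adjusted p = 0.0391) were also higher in remote peaks by this exact test.

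Lower in remote peaks were SP/KLF, CTCF, NF-kB and STAT motifs. SP/KLF was in 1.54% ± 0.677 of remote against 3.27% ± 1.30 of other distal peaks, CTCF in 1.59% ± 1.58 against 2.49% ± 1.49, NF-kB in 3.75% ± 0.925 against 4.51% ± 0.930 and STAT in 0.540% ± 0.129 against 0.714% ± 0.0893 (SD, n = 22; exact sign-flip adjusted p = 0.0130 for each, lower in 8 of 8 animals). MiT/TFE motifs, at 0.213% against 0.273%, did not pass (adjusted p = 0.117 by the same exact test). Base composition moved with these shares, since GC content was 47.3% in remote and 50.2% in other distal peaks (exact adjusted p = 0.0130), and its part in them was not tested. The median score percentile was higher in remote peaks (43.0 against 40.9, exact adjusted p = 0.0130), in the means of 8 of 8 animals but in 13 of 22 libraries. A remote region and another distal one were found in like numbers of further libraries (12.1 and 11.9, exact adjusted p = 0.536). Over regions rather than peaks, the AP-1 motif was in 20.4% of remote, 17.7% of other distal and 6.47% of promoter windows, and SP/KLF in 0.951%, 1.59% and 19.4%.

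**Figure D1:**
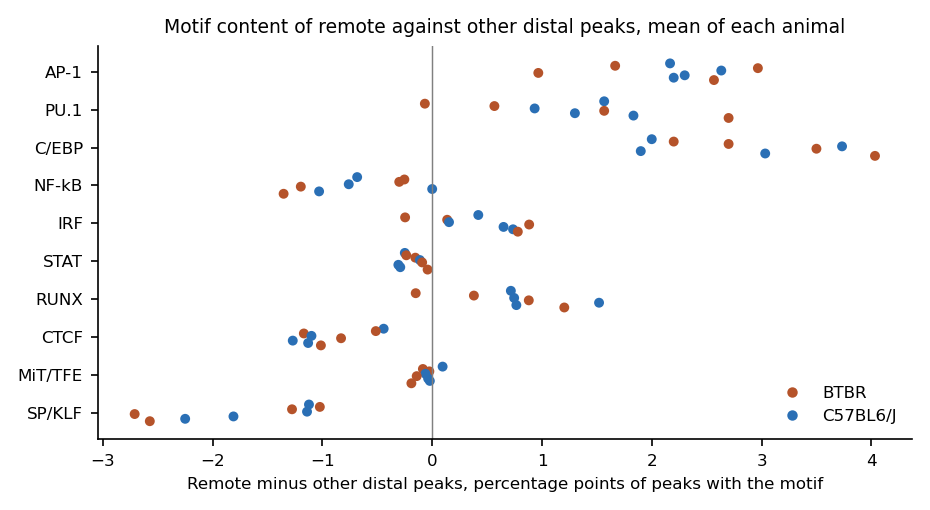
Percentage points by which the share of peaks with each of 10 motifs was higher (right of 0) or lower in remote than in other distal peaks, 1 point per animal as the mean over its libraries, in BTBR and C57BL6/J. All 8 animals lie above 0 for AP-1 and C/EBP and below 0 for CTCF and SP/KLF.

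The mean share of a library's regions that were remote was higher after LPSx1 than in media, a difference that passed the test within lanes but not with treatments swapped within animals, and for LPSx2 the difference did not pass. The promoter share fell at the same time, and outside promoters no difference in the remote share passed. Remote regions made up 6.60% ± 0.564 of a library's regions after LPSx1 (SD, n = 8; lowest 5.44, median 6.60, highest 7.34), 6.87% ± 1.26 after LPSx2 (n = 7; 4.77, 6.94 and 8.57) and 5.12% ± 1.38 in media (n = 7; 2.92, 4.88 and 7.29). The groups overlapped, since the media libraries of animals 2, 3 and 4 (7.29%, 5.96% and 5.74%) lay within the LPSx1 range. LPSx1 exceeded media by 1.55 points as a mean over lanes (2-sided exact permutation within lanes, p = 0.0262), with 6 of 7 animals higher, and with treatments swapped within animals the exact p was 0.0938. Within lanes 1 to 4 the difference was -0.105, 0.692, 2.57 and 3.03 points. Lanes 3 and 4 also had more additional PCR cycles than lanes 1 and 2, and the part of cycles in these differences was not tested. LPSx2 exceeded media by 1.95 points (exact p = 0.0880, 5 of 7 animals higher). Both comparisons use the same media libraries.

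The call for LPSx1 depended on single animals. It was lost without animal 1, 5, 6, 7 or 8 in turn (exact p = 0.0556 to 0.176). In BTBR animal 2, whose lists were limited to 8.92% to 18% of their length, the share was 5.44% after LPSx1, 4.77% after LPSx2 and 7.29% in media. In full lists, all 7 animals had a higher share after LPSx1 than in media (1.74 points, exact p = 0.00772, with animals as blocks 0.0156), and 6 of 7 after LPSx2 (2.12 points, exact p = 0.0185, with blocks 0.0312). The promoter share fell after LPS in every animal, to 45.6% ± 6.97 after LPSx1 (n = 8) and 43.2% ± 5.48 after LPSx2 (n = 7), against 54.8% ± 10.6 in media (n = 7; exact p = 0.00154 and 0.00463). Among regions over 1 kb from a TSS, the remote share was 12.4% ± 2.22 after LPSx1, 12.3% ± 2.96 after LPSx2 and 11.3% ± 1.5 in media, and neither difference passed (exact p = 0.307 and 0.361).

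No difference in the remote share passed the test between LPSx2 and LPSx1 or between strains. LPSx2 against LPSx1 gave 0.404 points (exact p = 0.343). BTBR against C57BL6/J gave 0.0106 points (exact permutation of animals, p = 0.943, n = 4 each, smallest p 0.0286). The LPSx1 response was 0.866 points in BTBR and 2.05 in C57BL6/J (exact p of the difference 0.457), and the LPSx2 response 1.19 and 2.50 (exact p = 0.543). The smallest p that 4 against 3 animals allow is 0.0286.

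**Figure D2:**
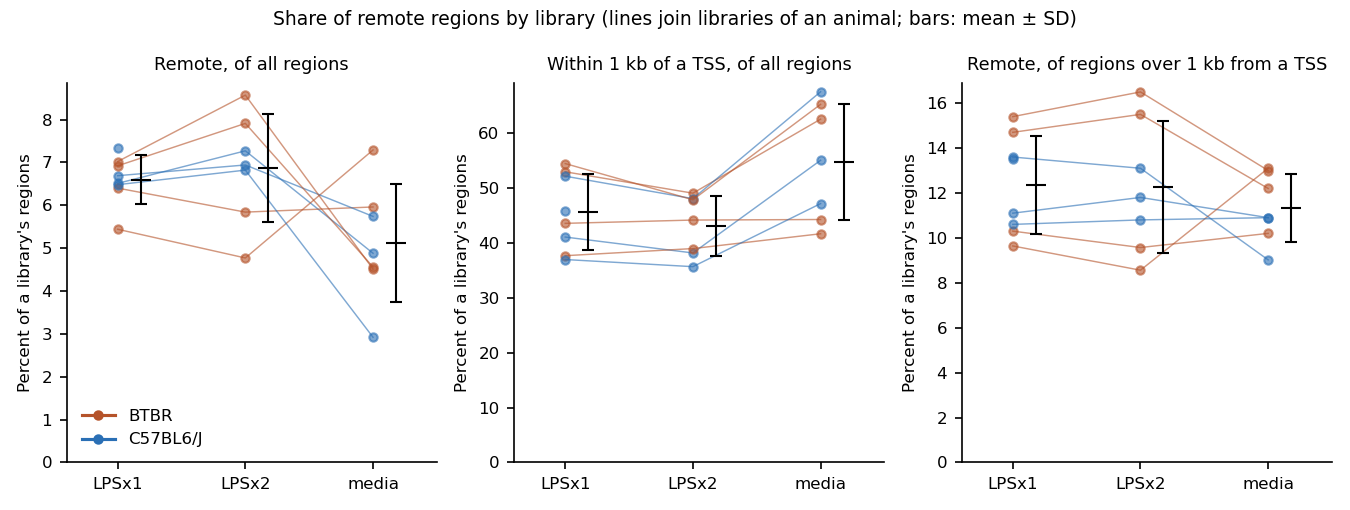
Percent of a library's regions that were remote (left), that lay within 1 kb of a TSS (middle), and that were remote among regions over 1 kb from a TSS (right), after LPSx1, LPSx2 and in media, with lines joining the libraries of an animal and bars giving mean ± SD. The remote share averaged 6.60% after LPSx1, 6.87% after LPSx2 and 5.12% in media, while the right panel shows 12.4%, 12.3% and 11.3%.

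The motif content of remote peaks changed with LPS. In length-limited lists, AP-1 rose and PU.1 fell after both LPSx1 and LPSx2. The rise of NF-kB and the fall of SP/KLF passed for LPSx1 alone. The AP-1 motif was in 30.3% ± 1.21 of remote peaks after LPSx1 (SD, n = 8; 29.0 to 32.1), 28.7% ± 1.94 after LPSx2 (n = 7; 26.9 to 31.7) and 22.9% ± 1.81 in media (n = 7; 21 to 25.7), so no LPS library overlapped the media libraries. The difference was 7.45 points for LPSx1 (exact permutation within lanes, adjusted p = 0.00772) and 5.56 for LPSx2 (adjusted p = 0.0231 by the same exact test), higher in 7 of 7 animals each. NF-kB was in 4.10% ± 0.599 after LPSx1, 4.23% ± 0.955 after LPSx2 and 2.87% ± 0.574 in media. Its LPSx1 difference of 1.29 points passed (exact adjusted p = 0.00772, 7 of 7 animals) and its LPSx2 difference of 1.57 points did not (exact adjusted p = 0.0579, 5 of 7 animals). By strain, NF-kB was in 4.51% ± 0.476 of remote peaks after LPSx1, 4.76% ± 0.554 after LPSx2 and 2.50% ± 0.262 in media in BTBR (n = 4 each). In C57BL6/J it was in 3.70% ± 0.414 (n = 4), 3.53% ± 0.988 (n = 3) and 3.38% ± 0.467 (n = 3). Within animals the LPSx1 difference averaged 2.01 points in BTBR and 0.151 in C57BL6/J, and the LPSx2 difference 2.26 and 0.149. The differences between strains, tested after these values were seen, were at the smallest exact permutation p that 4 against 3 animals allow (0.0286 each) and did not pass over 10 motifs (adjusted p = 0.286 and 0.143).

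PU.1 motifs fell to 13.9% ± 0.794 after LPSx1 and 13.5% ± 1.39 after LPSx2, against 16.2% ± 1.11 in media (differences -2.14 and -2.83 points, exact adjusted p = 0.0103 and 0.0231, lower in 7 of 7 animals each). SP/KLF motifs were in 1.31% ± 0.303, 1.21% ± 0.320 and 2.14% ± 0.878 after LPSx1, after LPSx2 and in media, which passed for LPSx1 (-0.828 points, exact adjusted p = 0.0154) and not for LPSx2 (-0.927 points, exact adjusted p = 0.0579). C/EBP and RUNX did not pass (exact adjusted p = 0.0694 each for LPSx1). In full lists they did, with C/EBP higher by 2.08 points for LPSx1 and 2.12 for LPSx2 (exact adjusted p = 0.0154 each), and RUNX at -1.13 and -0.927 points (exact adjusted p = 0.00514 and 0.0463). NF-kB and SP/KLF passed for LPSx2 in full lists too (1.55 and -0.888 points, exact adjusted p = 0.0370 and 0.0154). With treatments swapped within animals, AP-1, NF-kB and PU.1 reached the smallest p that 128 arrangements allow, 0.0156, and adjusted over 10 motifs 0.0521 for LPSx1. No motif passed between LPSx2 and LPSx1, where AP-1 came closest (-1.89 points, exact p = 0.0216, adjusted p = 0.216), or between BTBR and C57BL6/J (lowest exact adjusted p = 0.143).

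The motif response of remote peaks was tested against that of other distal peaks in the same libraries, and of 10 motifs SP/KLF alone differed. Its change was 0.946 points less negative in remote peaks for LPSx1 (exact adjusted p = 0.0154) and 0.893 for LPSx2 (exact adjusted p = 0.0463). The SP/KLF share started lower in remote peaks, at 2.14% in media against 4.41% in other distal peaks. After LPSx1 the shares were 1.31% and 2.80%, and after LPSx2 1.21% and 2.68%. The test compared points, and the fall in proportion to the starting share was not tested. For AP-1 the remote response was 0.726 points smaller for LPSx1 (-0.726, exact adjusted p = 0.401, n = 7 animals).

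The CTCF motif split the libraries in another way. It was in 3.86% and 5.69% of remote peaks of BTBR animal 5 after LPSx1 and LPSx2 and in 3.55% and 5.38% of those of BTBR animal 8, against 0.413% to 2.40% in the other 18 libraries. These 4 BTBR libraries had 12 or 13 additional PCR cycles, as had the media libraries of animals 5 and 8 and all libraries of C57BL6/J animal 7. The media libraries of animals 5 and 8 and all libraries of BTBR animals 2 and 3 lay in the low range, and the LPS differences did not pass (exact adjusted p = 0.322 and 0.185), while in full lists that for LPSx1 did (1.45 points, exact adjusted p = 0.0309). Without those 4 libraries, left out after the data were seen, the AP-1 difference was 7.80 points for LPSx1 (exact adjusted p = 0.0463) and 6.47 for LPSx2 (exact adjusted p = 0.0926).

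**Figure D3:**
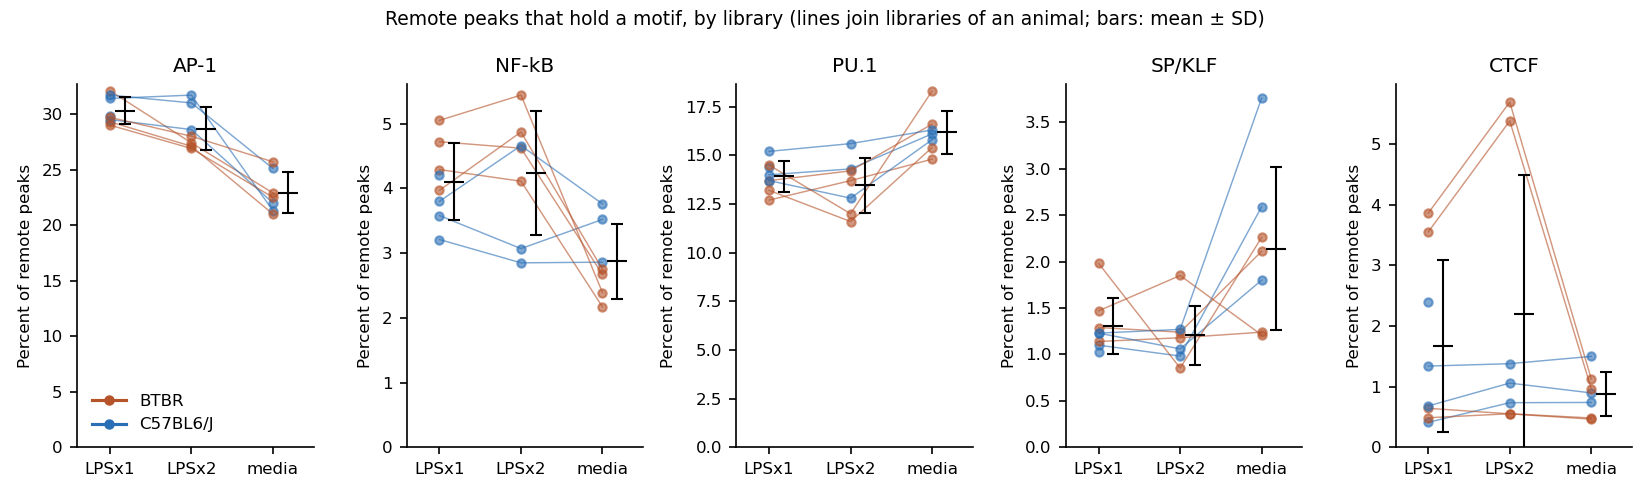
Percent of a library's remote peaks that hold the AP-1, NF-kB, PU.1, SP/KLF or CTCF motif after LPSx1, LPSx2 and in media, with lines joining the libraries of an animal and bars giving mean ± SD (the CTCF bar for LPSx2 is clipped at 0). AP-1 lies between 29.0% and 32.1% after LPSx1 and between 21% and 25.7% in media, and 4 BTBR libraries stand apart for CTCF, at 3.55% to 5.69%.

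In length-limited lists, members tested 1 by 1 were more often called higher than lower after LPS. Of 22425 regions variable enough to test, 1594 were members, fitted with limma on detection (1 or 0) with lane as a covariate. Testing needed detection in at least 4 of 22 libraries. Regions seen after LPS alone could meet this in 8 LPSx1 and 7 LPSx2 libraries, and those seen in media alone in 7. The part of this filter in the balance of gains and losses was not tested. After LPSx1, 175 members were called higher (11%, against 6.27% of all tested regions) and 70 lower (4.39%, against 5.00%). After LPSx2, 184 were higher (11.5%, against 6.70%) and 69 lower (4.33%, against 5.52%). Both use the same media libraries. Other distal regions gave 8.85% higher and 3.99% lower for LPSx1, and promoter regions 1.55% and 6.61%. For LPSx2 other distal regions gave 9.60% higher and 3.88% lower, and those at 50 to 100 kb 11.7% and 3.87%, near the shares of members. By distance, 8.33% of tested regions at 1 to 10 kb were called higher for LPSx1, 9.03% at 10 to 50 kb, 9.99% at 50 to 100 kb, 11.2% at 100 to 200 kb, 10.4% at 200 to 500 kb and 11.9% over 500 kb.

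With the animal as a block, 119 members were higher (7.47%, against 4.16% of all tested regions) and 43 lower (2.70%, against 2.74%) for LPSx1. Without animal 3 the calls came to 158 in place of 245 (11.4% of 1388 tested members, against 8.74% of all tested regions). In full lists 295 of 4399 tested members were higher (6.71%, against 3.95% of 53435 tested regions) and 15 lower (0.341%, against 0.140%) for LPSx1, so the balance of gains and losses depended on the limit of list length. By a plain detection rule (5 or more of 7 animals with the region in LPSx1 but not in media, and no animal the other way), 99 members were gained (1.11%, against 0.784% of all 106265 regions) and 39 lost (0.436%, against 0.504%). For LPSx2 the rule gave 135 gained (1.51%, against 0.894%) and 42 lost (0.470%, against 0.598%).

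**Figure D4:**
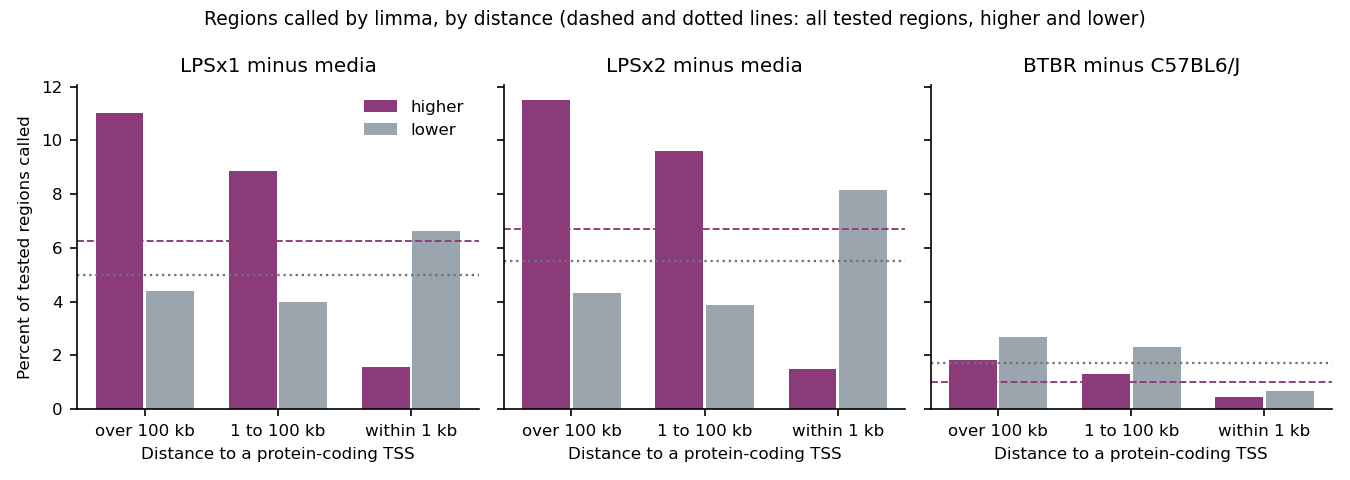
Percent of tested regions that limma called higher or lower in LPSx1 over media, LPSx2 over media and BTBR over C57BL6/J, for regions over 100 kb, at 1 to 100 kb and within 1 kb of a TSS, with all tested regions as dashed (higher) and dotted (lower) lines. Remote regions were called higher after LPSx1 at 11% and lower at 4.39%, and promoter regions at 1.55% and 6.61%.

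At 8 members the split was complete, with detection in every LPS library and in no media library (0.0895% of members, against 0.0581% of other distal regions). The 6 named by rule were detected in 8 of 8 LPSx1, 7 of 7 LPSx2 and 0 of 7 media libraries (difference 100 ± 5.34 points for LPSx1, limma adjusted p = 2.41e-09, and 100 ± 5.49 for LPSx2, adjusted p = 3.60e-09). The region in an intron of Sox5, a transcription factor gene (chr6:144640564-144640883, 141 kb from a start of that gene), was also absent from all 7 full media lists. The region 198 kb from Acvr2a, which encodes a receptor of activins (chr2:48615718-48616087), was in 2 of 7 full media lists, as was that between Inhba, which encodes a subunit of activin A, and Sugct (chr13:16898483-16898794, in a Sugct intron, 884 and 796 kb away). The region in an intron of the flippase gene Atp10a (chr7:58824700-58824950, 167 kb from its start) was in 2 of 7 full media lists too.

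The other pair among these 6 lay at immunoglobulin heavy chain variable segments, 0.482 kb from Ighv1-63 (chr12:115495420-115495731) and 0.466 kb from Ighv1-73 (chr12:115790395-115790726). They were in 1 and 4 of 7 full media lists. Of 59 members within 1 kb of such segments 13 were tested, and 6 were called higher and 0 lower after LPSx1 (against 6.27% and 5.00% of all tested regions), and likewise 6 and 0 after LPSx2 (against 6.70% and 5.52%). The pair at Ighv1-63 and Ighv1-73 are near copies of each other, so these counts may not be independent. The B cell gene Ms4a1 had a promoter peak in 2 of 8 LPSx1, 4 of 7 LPSx2 and 1 of 7 media libraries, Pax5 in 2, 1 and 0, Ebf1 in 0, 1 and 0 and Cd79a in none, and their part in the result was not tested.

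Among the members called lower after LPS in length-limited lists were those beside the transcription factor genes Klf4 and Zeb2. The member 209 kb from Klf4, a factor of monocyte differentiation (chr4:55741321-55741676), was in 0 of 8 LPSx1, 0 of 7 LPSx2 and 7 of 7 media libraries (-100 ± 5.61 points for LPSx1, limma adjusted p = 3.97e-09), but in 4 of 8, 3 of 7 and 7 of 7 full lists. The member 159 kb from Zeb2 (chr2:45276682-45277102) was in 0 of 8, 1 of 7 and 7 of 7 (limma adjusted p = 7.15e-05 for LPSx1), but in 4 of 8, 4 of 7 and 7 of 7 full lists. That between Dusp10, a phosphatase of stress-activated kinases, and Hlx, a homeobox gene (chr1:184444256-184444549), was in 1 of 8, 1 of 7 and 7 of 7 (limma adjusted p = 0.00147), but in 5 of 8, 5 of 7 and 7 of 7 full lists. Members at Kcnrg and Rnaseh2b (chr14:61971432-61971786) and at Banp and Zfpm1, a cofactor of GATA proteins (chr8:122112299-122112570), were in 0 of 8, 1 of 7 and 7 of 7, and in 1 of 8, 0 of 7 and 7 of 7. In full lists they were in 3 of 8, 2 of 7 and 7 of 7, and in 3 of 8, 1 of 7 and 7 of 7. A member between Grxcr1 and Kctd8 (chr5:68735187-68735549) was named for LPSx2 alone, with 2 of 8, 0 of 7 and 7 of 7 (-72.9 ± 14.4 points for LPSx1 and -100 ± 14.8 for LPSx2).

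One further lost member lay in an intron of Ldlrad4, an inhibitor of TGF-beta signalling (chr18:68059026-68059407). It was detected in 0 of 8 LPSx1, 1 of 7 LPSx2 and 7 of 7 media libraries (limma adjusted p = 5.09e-05 for LPSx1). In full lists, of the 6 lost and 6 gained members named for LPSx1, 5 lost members and the member at Ighv1-73 were no longer called (limma adjusted p = 0.0514 to 0.346 for the lost ones, 0.0745 at Ighv1-73).

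The motifs of called members ran in the direction seen over peaks. For LPSx1, AP-1 was in the best window of 38.3% of the 175 members called higher, 15.7% of the 70 called lower and 26.0% of the 1349 tested and not called. PU.1 was in 11.4%, 18.6% and 13.8%, and NF-kB in 6.29%, 1.43% and 3.48%. In other distal regions AP-1 stood at 44.1%, 10.1% and 23.2%. These shares come from the libraries that gave the calls and are a description. Over all tested regions 6.27% were called higher and 5.00% lower for LPSx1, and 6.70% and 5.52% for LPSx2, and the counts by chain and by gene below rest on few members each. By chain, 4 of 10 tested members of the immunoglobulin chain and 4 of 14 of the chain beside Maf were called higher for LPSx1 and 0 lower, while in the chain beside Bcl2l11 0 of 8 were higher and 2 lower for LPSx1 and 4 for LPSx2. Of the tested members nearest to macrophage factor genes (42), 8 were higher and 4 lower for LPSx1 and 7 and 3 for LPSx2, and 4 of 13 nearest to Maf were higher.

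A second dose of LPS gave no call at remote regions. By limma 0 of 1594 members passed between LPSx2 and LPSx1, against 0.0134% of all tested regions, and 57 had an unadjusted p under 0.05. Of the members with the largest differences, which did not pass, one near Gja1, a gap junction gene (chr10:56582131-56582421), was in 0 of 7 LPSx2 and 5 of 8 LPSx1 libraries, and one between Mmadhc and Rnd3 (chr2:50539784-50540098) in 4 of 7 and 0 of 8.

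**Figure D5:**
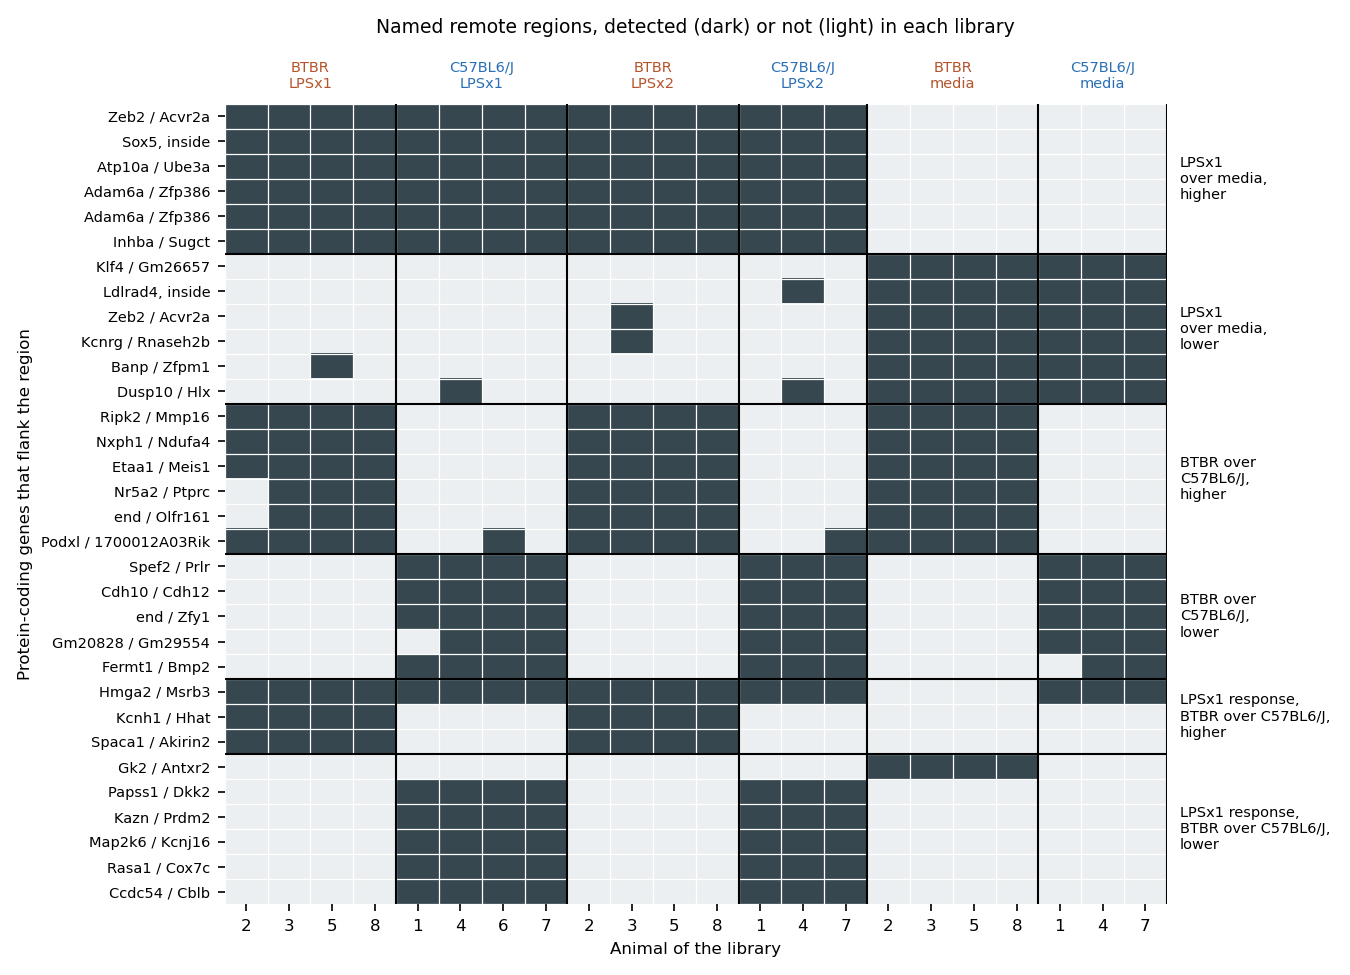
Detection (dark) of named remote regions in each of 22 length-limited lists, in columns by treatment and strain with the animal number below, and in rows by comparison and direction with the flanking protein-coding genes as labels (end marks a chromosome end). The first 6 rows were detected in all 15 LPS libraries and none of the 7 media libraries, and the strain rows follow strain in all 3 treatments apart from a few single libraries, such as BTBR animal 2 after LPSx1.

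Between strains, 29 members were higher in BTBR (1.82%, against 1.02% of all tested regions) and 43 lower (2.70%, against 1.73%) by limma. Other distal regions gave 1.29% higher and 2.31% lower. Those at 50 to 100 kb gave 1.94% and 3.00%, so these shares were not particular to remote regions. In that fit, with lane as a covariate, the estimated correlation between libraries of the same animal was close to 0 (consensus correlation -0.0302). It was 0.279 without lane as a covariate and 0.392 in full lists. With 1 mean per animal, 0 members passed and 249 of 1594 had an unadjusted p under 0.05, so the strain calls rest on libraries rather than on 4 against 4 animals. By the plain rule, 7 members were in most libraries of all 4 BTBR animals and of no C57BL6/J animal (0.0783%, against 0.0725% of all regions), and 21 the reverse (0.235%, against 0.138%).

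The leading strain regions split the libraries completely in length-limited lists. Peaks of both strains are placed on mm10, the sequence of C57BL6/J. Differences between strains in sequence and in accessibility therefore cannot be told apart here. The member 330 kb from Meis1, a homeobox gene of blood progenitors (chr11:18681651-18681925, in the noncoding gene Gm12023), was in 12 of 12 BTBR and 0 of 10 C57BL6/J libraries (100 ± 4.64 points, limma adjusted p = 5.45e-10), and in full lists in 12 of 12 and 1 of 10. Members between Ripk2, a kinase of bacterial sensing, and Mmp16 (chr4:16906835-16907544) and between Nxph1 and Ndufa4 (chr6:10154026-10154304) were in 12 of 12 BTBR and 0 of 10 C57BL6/J libraries in both kinds of list. One 329 kb from Ptprc, which encodes CD45 (chr1:137786786-137787011), was in 11 of 12 and 0 of 10.

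In the opposite direction, a member between the cadherin genes Cdh10 and Cdh12 (chr15:19857380-19857959) was in 0 of 12 BTBR and 10 of 10 C57BL6/J libraries in both kinds of list (-100 ± 4.67 points, limma adjusted p = 5.45e-10, and 0.000838 in full lists). A member between Spef2 and Prlr, the prolactin receptor gene (chr15:9864788-9865150), split likewise in length-limited lists, but was in 4 of 12 BTBR and 10 of 10 C57BL6/J full lists, where it was no longer called (limma adjusted p = 0.291). A member 108 kb from Bmp2 (chr2:133443518-133443864, in the noncoding gene A430048G15Rik) was in 0 of 12 and 9 of 10. In full lists it was in 7 of 12 BTBR and 9 of 10 C57BL6/J, and was no longer called (limma adjusted p = 0.756). On chromosome Y, members 538 kb from Zfy1 (chrY:259048-259306) and between Gm20828 and Gm29554 (chrY:11858018-11858242) were in 0 of 12 BTBR and in 10 and 9 of 10 C57BL6/J libraries. Over all 46 members on Y the order was the other way, with a median of 18 in BTBR full lists (4 to 32) and 2.00 in C57BL6/J full lists (2 to 3).

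The LPS response differed between strains at few members. For LPSx1, 9 members passed an interaction test in limma (0.565%, against 0.174% of all tested regions), and for LPSx2, 10 (0.627%, against 0.196%). Other distal regions gave 0.233% and 0.249%. A member between Hmga2, a DNA-binding architectural protein gene, and Msrb3 (chr10:120636110-120636461, in the noncoding gene 4930471E19Rik) was in 4 of 4 BTBR LPSx1, 4 of 4 BTBR LPSx2 and 0 of 4 BTBR media libraries, and in C57BL6/J in 4 of 4, 3 of 3 and 3 of 3. Over both strains it was in 6 of 7 full media lists, so its absence in BTBR media depended on the list limit. Members between Map2k6, a kinase that activates p38, and Kcnj16 (chr11:110702179-110702494) and between Ccdc54 and Cblb, a ubiquitin ligase that restrains immune signalling (chr16:50759975-50760303), were in all 7 C57BL6/J LPS libraries and in no other library, in full lists too. C57BL6/J media had 3 libraries in this test. It treated libraries of an animal as independent, and no fit by animal was run for it.

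The remote regions open in every library with the highest scores were of an unlike kind. The leading 3 (chr4:80003640-80004062 and chr4:80004831-80005141 between Ptprd and Tyrp1, and chr12:97061498-97061760 between Flrt2 and Galc) ranked at a median percentile of 99.9 or above in the lists, and 87.1%, 62.7% and 99.5% of their best windows lay in stretches of at least 20 bases shared with the mitochondrial genome. Of all 8936 members, 7 had 50% or more of the window in such stretches, among them 5 within chr4:80002843-80005141, and 6 of the 7 ranked at a median percentile of at least 99.9 in full lists. None of the 7 was among the regions named for a treatment or for strain. The fourth and sixth (chr1:7397845-7398275 between Pcmtd1 and Sntg1, and chr1:23256008-23256290 between 4933415F23Rik and Ogfrl1) held an SP/KLF motif and had a GC content of 63.7% and 69.2%, against a mean of 45.4% over members. The fifth (chr13:90515971-90516275, between Tmem167 and Atp6ap1l) held none of the 10 motifs. Over the 150 members in every full list, PU.1 was in 20.7% and SP/KLF in 4.67% of windows, against 10.9% and 0.951% of all members, and CTCF in 0.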

How the data were processed

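ATAC-seq was run on 24 libraries of 8 mice. Per the submitters' processing notes, reads were handled with Trimmomatic 0.38, SAMtools 1.8, Picard 2.18.4, bedtools and HOMER against mm10, and the aligner is not given in the sources used here. The peak lists deposited by the authors, 1 per library, hold peaks of fixed width with 1 score each. Its scale is not stated, so scores served only for ranking inside each list. Fragments had been limited to nucleosome-free ones, per the series' design text. Read depth is unknown.

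Overlapping peaks within a list were collapsed, 2 lists under 5000 peaks were dropped, and peaks of 22 lists were merged at 1 bp. Distances ran from a region's centre to the TSS of 101639 transcripts of 21938 protein-coding genes (GENCODE vM21, mm10). Lists of a lane were limited to equal length by score, with ties drawn at random. The members and lists were chosen with earlier results of these data known.

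Detection (1 or 0) was fitted with limma 3.58.1 in R 4.3.3 on regions found in at least 4 libraries and missing from at least 1, with lane as covariate and Benjamini-Hochberg adjustment at 0.05 over all regions; for strain the animal was a random effect. Where detection was uniform within groups, the standard error comes from limma's moderated variance. Shares were compared by 2-sided exact permutation within lanes, with motif p-values adjusted over 10 motifs. Libraries with the same replicate number come from the same animal, which is the pairing used for the fits with a replicate block. All libraries come from cultures of these 8 animals. P-values of exact tests over animals measure the spread between animals. Those of the permutation within lanes and of the main limma fits measure the spread between libraries, with no animal term for treatment or interaction. In the strain fit, the consensus correlation of -0.0302 left libraries of an animal nearly independent. Named regions were the 6 with the largest difference in each direction among those called, or 3 where none was, and the 6 highest-ranked regions found in every full list. A strain region and a marker gene among those fixed are not reported here. The comparisons with mitochondrial sequence and with immunoglobulin and T cell receptor segments were added after the data were seen. Python 3.11.15, NumPy 2.4.6, pandas 2.3.3, SciPy 1.17.1 and matplotlib 3.10.9 were used.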

Additional observations from a re-analysis of the deposited data

Results flagged for a closer look

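Of 77 groups of libraries checked, 2 held a value far from the rest, and chance flags about 1 in 20 groups. The SP/KLF motif was in 1.98% of remote peaks of BTBR animal 8 after LPSx1 and in 1.85% of those of BTBR animal 2 after LPSx2, above the other libraries of those treatments.

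The other flagged results are members whose LPS response differed between strains by an interaction test in limma. Detection after LPSx1 and after LPSx2 rose by 100 points more in BTBR at chr10:120636110-120636461 (Hmga2 and Msrb3), chr1:192537227-192537511 (an intron of Hhat) and chr4:34309243-34309503 (Spaca1 and Akirin2), and the last pair was in no C57BL6/J length-limited list. In full lists, the members at Hhat and at Spaca1 were in 3 and 2 of 7 media lists. In length-limited lists, the difference was -100 points for both treatments at chr5:97878272-97878502 (Gk2 and Antxr2), detected in the 4 BTBR media libraries alone. It was the same at chr3:131892033-131892358 (Papss1 and Dkk2), chr4:143035154-143035474 (Kazn and Prdm2), chr11:110702179-110702494 (Map2k6 and Kcnj16) and chr13:85418719-85419046 (Rasa1 and Cox7c), detected in C57BL6/J LPS libraries alone. In full lists, the member at Gk2 was in 7 of 12 BTBR libraries. Those at Papss1, Kazn, Map2k6 and Rasa1 were in 2, 2, 0 and 3 of 12 BTBR full lists. The difference was also -100 for both treatments at chr16:50759975-50760303 (Ccdc54 and Cblb), and -175 for LPSx2 at chr1:142665327-142665715 (Kcnt2 and Cdc73, limma adjusted p = 0.0308).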

How the results depend on the processing

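Treatment effects rest on 7 or 8 libraries a group, strain effects on 4 animals each, and a list says nothing of signal under its threshold. For LPSx1 over media the remote share of 1.55 points kept its direction but lost its call over 200 kb from a TSS (0.573), without the 7 lists with duplicated peaks (1.25), and with treatments swapped within animals as a replicate block (1.37). Of the alternatives chosen after seeing the data, it lost the call among regions over 1 kb from a TSS (0.920) and without the BTBR LPS libraries of animals 5 and 8 (1.53). Leaving out 1 animal at a time gave 1.11 to 1.98. For LPSx2 over media (1.95) the share passed in full lists (2.12), over 50 kb (3.82) and from gene starts alone (3.35), and leaving out animals gave 1.34 to 2.56. BTBR minus C57BL6/J, at 0.0106, turned negative among the stronger peaks of each list (-0.468), over 50 kb (-0.0592), from gene starts alone (-0.154), and without those 4 libraries (-0.561), with -0.309 to 0.237 when animals were left out.

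With the replicate block, motif differences for LPSx1 were 7.47 (AP-1), -2.31 (PU.1), 1.21 (NF-kB) and -0.791 (SP/KLF) points, and for LPSx2 5.73 (AP-1) and -2.71 (PU.1), none of which passed after adjustment. In the central part of peak windows, PU.1 (-0.854 for LPSx1, -1.44 for LPSx2) and SP/KLF (-0.444) no longer passed, RUNX turned positive (0.104 and 0.0162), MiT/TFE too (0.110 and 0.0561), and STAT negative for LPSx1 (-0.0562). Without the BTBR LPS libraries of animals 5 and 8, AP-1 for LPSx2 was 6.47 and no longer passed. Leaving out animals gave AP-1 7.12 to 7.78 for LPSx1 and 4.82 to 6.30 for LPSx2, PU.1 -2.47 to -1.81 and -3.52 to -2.15, NF-kB 0.975 to 1.54 and SP/KLF -1.11 to -0.546. The AP-1 and PU.1 calls for LPSx2 were lost without animal 1, 3, 4 or 8 (adjusted p = 0.0694 each), and the SP/KLF call for LPSx1 without animal 1 (0.116) or 5 (0.0741). In full lists C/EBP and RUNX passed for both treatments, CTCF for LPSx1, and NF-kB and SP/KLF for LPSx2. It turned the sign of small differences, with ranges of -0.251 to 0.0110 for IRF after LPSx1, -0.0132 to 0.131 and -0.0234 to 0.128 for STAT after LPSx1 and LPSx2, and -0.0729 to 0.0723 and -0.0762 to 0.0475 for MiT/TFE.

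Of 1594 members tested, 15.4% (245) were called for LPSx1, 15.9% (253) for LPSx2 and 4.52% (72) for strain, and with another distance rule the counts scaled while these shares moved little. The shares were 14.7%, 15.7% and 4.73% of 3195 members over 50 kb (471, 503 and 151 called), 15.6%, 15.6% and 5.25% of 628 over 200 kb (98, 98 and 33), and 15%, 15.9% and 4.64% of 2696 from gene starts alone (405, 428 and 125). Among the stronger peaks of each list they were 13.2%, 15.9% and 5.50% of 763 members. Without duplicated lists they were 8.35%, 7.53% and 10.6% of 1222 (102, 92 and 129). With the replicate block LPSx1 gave 10.2% (162), and without the BTBR LPS libraries of animals 5 and 8 LPSx2 gave 12.3% (168 of 1369). Strain gave 0.432% in full lists (19 of 4399), 2.32% with no lane covariate (37) and 0 with 1 mean per animal. LPSx2 against LPSx1 (0) gave 0.409% without duplicated lists (5 regions) and 0.0730% without those BTBR libraries (1 region). Leaving out animals gave 11.3% to 13.6% for LPSx1 (158 to 198 regions), 10.5% to 15.8% for LPSx2 (161 to 240), 3.47% to 6.79% for strain (50 to 105) and 0 to 0.0720% between doses (at most 1 region). No region named for treatment or strain lost its call when 1 animal was left out. The causes of these shifts were not tested.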

Other observations

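The 2 lists left out for their length still held peaks at remote regions. Of 299 peaks in the media library of C57BL6/J animal 6, 24 (8.03%) lay at members, and of 1877 collapsed peaks in its LPSx2 library 96 (5.11%).

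Remote regions were unevenly spread over chromosomes. Their density was 19.7 per Mb of remote sequence on chromosome 13 and 17.3 on chromosome 10, against 5.46 on chromosome 7 and 3.25 on X. Other distal regions stood at 47.4, 52.8, 44.5 and 15.6 per Mb on the same chromosomes.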
